A study of Mus musculus with 3 samples.

Results

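Macrophages that meet interleukin 4 or interleukin 13 take up a state called alternative activation, in which the cytokines bind a receptor that contains the Il4ra chain and the transcription factor Stat6 switches on a set of target genes. The products of these genes process arginine, bind sugars, scavenge debris and are secreted into the tissue, and in skin wounds such macrophages are known from the phase of repair. Other genes used as markers of the state, such as *Cd163* and *Folr2*, are also high in macrophages that reside in uninjured tissue. The levels of 10 such genes were taken from the 32285 genes counted in wound cells: *Arg1*, *Chil3*, *Retnla*, *Mrc1*, *Mgl2*, *Clec10a*, *Cd163*, *Folr2*, *Il4ra* and *Il10*. They were chosen by name, with earlier results of these data known, and all 10 were found by their Ensembl ID.

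The cells came from full-thickness skin wounds of young adult male C57BL/6J mice, an inbred strain, collected at 3, 7, and 14 days after injury. All animals were wild type and wounded, with no unwounded skin and no treatment in any group. The wounds are called incisional in the series' design text and excisional in the study's methods. Cells of several wounds were pooled without sorting into 1 library per day, so there were no replicates, no test was possible, and every ratio sets 2 libraries side by side.

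The 10 genes lie at these positions on GRCm38 (mm10), the build of the count files. *Arg1* (ENSMUSG00000019987), arginase 1, which splits arginine into ornithine and urea, spans chr10:24915221-24927484 on the minus strand. *Chil3*, a secreted chitinase-like protein also called Ym1, lies at chr3:106147554-106167564 on the minus strand, and *Retnla*, a secreted resistin-like protein, at chr16:48842551-48844461 on the plus strand. *Mrc1*, the endocytic mannose receptor, lies at chr2:14229392-14332057 on the plus strand. *Mgl2* (chr11:70130329-70137550) and *Clec10a* (chr11:70156197-70170834) encode related lectins for galactose-type sugars and follow each other on the plus strand with 18646 bases between them. *Cd163*, the scavenger receptor for haemoglobin bound to haptoglobin, lies at chr6:124304656-124330527 on the plus strand, and *Folr2*, a folate receptor, at chr7:101839988-101857194 on the minus strand. *Il4ra* lies at chr7:125552120-125579474 and *Il10*, a cytokine that restrains inflammation, at chr1:131019845-131024974, both on the plus strand. The last 500 bases of transcripts, where a 3' library reads, held stretches of 50 bases in common with other genes for *Chil3* (17.8% of the stretches, with *Chil4* and *Gm6522*), *Clec10a* (13.8%, with *Mgl2*) and *Mgl2* (9.82%, mainly with *Clec10a*). A read that lies wholly within such a stretch cannot be assigned to 1 gene. The reads were not examined, so the effect on the counts was not tested. The share was 0.871% for *Cd163* and 0 for the other 6 genes.

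The sequences before the start sites of *Retnla* and *Chil3* are shown because the levels of these secreted proteins ran in opposite directions over the days. They are the 250 bases before the RefSeq start (GRCm38.p6), at chr16:48842359-48842608 on the plus strand for *Retnla* and chr3:106167565-106167814 on the minus strand for *Chil3*, written 5′ to 3′ with matches to STAT-type motifs in capitals.
Retnla: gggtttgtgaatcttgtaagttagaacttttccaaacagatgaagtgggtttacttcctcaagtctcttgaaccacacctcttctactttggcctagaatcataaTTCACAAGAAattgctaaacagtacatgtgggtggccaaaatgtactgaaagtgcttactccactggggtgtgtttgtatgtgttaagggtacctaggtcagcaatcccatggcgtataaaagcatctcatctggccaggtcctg
Chil3: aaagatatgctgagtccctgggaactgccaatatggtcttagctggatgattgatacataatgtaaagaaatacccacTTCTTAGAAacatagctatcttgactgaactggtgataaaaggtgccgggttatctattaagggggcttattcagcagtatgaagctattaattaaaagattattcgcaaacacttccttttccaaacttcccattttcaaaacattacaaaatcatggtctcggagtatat
The *Retnla* match, at -145 to -136 from the start, is to TTCNNNNGAA, the spacing preferred by Stat6, and 6.95% of 32851 RefSeq promoters of 300 bases hold this motif. The *Chil3* match, at -172 to -164, is to TTCNNNGAA, the spacing of other STAT factors, which 8.30% of promoters hold. *Retnla* also held a C/EBP-type TTGCNNAA at -134 to -127 (10.8% of promoters) that does not overlap the STAT-type match. The PU.1-type GAGGAA (28.3% of promoters) was found in *Retnla*, *Mgl2* and *Mrc1*. Both strands were searched in the promoters of the 7 genes that matched, and a match is a description of letters and not a site.

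The libraries held 5158, 22924 and 16611 barcodes on Days 3, 7, and 14. Filters and removal of called doublets left 37460 cells in 34 clusters. The 10 genes were kept out of the clustering and out of the markers that named the cell classes. They could still take places among the 10 leading genes of a cluster, and a cluster stayed unnamed when these held more markers of another class. This rule left out a cluster of 1269 cells whose best class was macrophage, with *Arg1* and *Retnla* among its leading genes. Of the 34 clusters, 7 were macrophage-like, with 2579, 8437 and 2923 cells on the 3 days. All 11 macrophage markers were found in them on each day, at a summed 11934, 16083 and 21505 CPM (the part that a gene takes of the total UMIs in its cells, on the scale usual for counts, where a UMI marks 1 captured mRNA molecule). The macrophage-like cells held 11957513, 24942838 and 11585818 UMIs in all. Markers of other cells moved over the days in the same cells: the 8 fibroblast markers were at a summed 413, 3632 and 5625 CPM, the 6 monocyte markers at 2428, 924 and 557 CPM, the 8 neutrophil markers at 242, 154 and 43.2 CPM, the 9 epithelial cell markers at 1.84, 11.8 and 147 CPM and the 9 dendritic cell markers at 351, 137 and 299 CPM. Their part in the differences below was not tested. Libraries shared 19 to 111 barcodes between pairs of days. Intervals are at 95% and cover counting error only.

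Different clusters made up the class as the days went by. Each cluster is called by 2 of its 10 leading genes, chosen from those that are not among the studied genes. Studied genes stood among the 10 leading genes of 6 of the 7 clusters, and they came first in the *Cxcl3*/*Ppbp* cluster (*Arg1*) and the *Lyz1*/*Ear2* cluster (*Retnla*). On Day 3, 54.3% of macrophage-like cells were in the *Cxcl3*/*Ppbp* cluster and 28.6% in a cluster with *Ly6c2* and *Ccr2*, the genes of inflammatory monocytes. On Day 7, 39.6% were in a cluster with *Mmp12* and *Trem2* and 19.5% in a cluster with *Cbr2* and *Ednrb*, which also had the resident macrophage genes *Lyve1* and *F13a1* among its leading genes. On Day 14, 48.7% were in a cluster with *Slamf7* and *Ccl8*, 17.96% in the *Lyz1*/*Ear2* cluster and 16.9% in the *Cbr2*/*Ednrb* cluster. The seventh cluster, with *Cx3cr1* and *H2-Eb1*, held 1.12%, 10.4% and 7.77%. The second best class was dendritic cell for the *Lyz1*/*Ear2* cluster and neutrophil for the *Cxcl3*/*Ppbp* and *Ly6c2*/*Ccr2* clusters.

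In macrophage-like cells, the enzyme *Arg1* and the secreted *Chil3* were lower with each day, and the secreted *Retnla* was higher. *Arg1* was at 1448 CPM on Day 3 (17318 UMIs), 825 CPM on Day 7 (20581 UMIs) and 2.76 CPM (1.89 to 3.90) on Day 14 (32 UMIs). It was high in both early libraries and near 0 in the last, where 11 of 2923 cells held its UMIs and 1 cell held 21 of the 32. Its log2 ratio was -0.81 (-0.84 to -0.78) between Days 3 and 7 and -8.22 (-8.77 to -7.72), or 299-fold lower, between Days 7 and 14. The early ratio passed the 2-fold limit under 3 of the alternatives, down to -1.45 with each library clustered alone, and the late ratio was -9.13 with the mean of the CPM of each cell and -9.76 (-10.77 to -8.92) without that 1 cell of Day 14.

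*Chil3* was at 201 CPM on Day 3, 28.4 CPM on Day 7 and 5.87 CPM (4.56 to 7.44) on Day 14. The level was lower at each step, 7.06-fold from Day 3 to Day 7 (log2 ratio -2.82, -2.94 to -2.70) and 4.84-fold from Day 7 to Day 14 (-2.28, -2.66 to -1.92). *Retnla* ran the other way, at 26.9 CPM on Day 3, 303 CPM on Day 7 and 2779 CPM on Day 14. It was 11.2-fold higher on Day 7 than on Day 3 (log2 ratio 3.49, 3.33 to 3.66) and 9.17-fold higher on Day 14 than on Day 7 (3.20, 3.16 to 3.23). Few cells carried *Retnla*. On Day 3 its 322 UMIs lay in 21 cells, 179 of them in 1 cell, so the interval of the ratio is narrower than the spread between cells. Without that cell the Day 3 level was 11.98 CPM and the early log2 ratio 4.66. On Day 7 the 442 cells with a UMI were 5.24% of the class, and the 1% of cells with the most held 80.4% of its UMIs. On Day 14 there were 648 such cells, or 22.2%, with up to 568 UMIs in 1 cell. Without the *Lyz1*/*Ear2* cluster the *Retnla* log2 ratios were 2.36 and 2.53.

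The sugar-binding receptors were all higher on Day 14 than on Day 3, by different steps. *Mrc1* was at 719 CPM on Day 3, 1295 CPM on Day 7 and 1878 CPM on Day 14. Its log2 ratios of 0.85 (0.81 to 0.88) and 0.54 (0.51 to 0.56) were each under the 2-fold limit used to count genes. *Mgl2* was at 9.03 CPM (7.41 to 10.9) on Day 3, 50.4 CPM on Day 7 and 415 CPM on Day 14. This was 5.58-fold higher on Day 7 (log2 ratio 2.48, 2.20 to 2.78) and a further 8.23-fold higher on Day 14 (3.04, 2.95 to 3.13). The Day 3 value rested on 108 UMIs in 37 cells, and the Day 7 to Day 3 log2 ratio was 1.17 when each cell was given its class from its own markers. *Clec10a*, its neighbour, was at 76.6 CPM, 96.1 CPM and 229.85 CPM, with log2 ratios of 0.33 (0.22 to 0.44) and 1.26 (1.18 to 1.34).

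Of the scavenger and folate receptors, *Cd163* was over 2-fold higher at the early step, and *Folr2* passed the 2-fold limit at neither. *Cd163* was at 34.0 CPM on Day 3, 83.4 CPM on Day 7 and 87.6 CPM on Day 14, a log2 ratio of 1.29 (1.14 to 1.45) at the early step and 0.07 at the late step. The early ratio was 0.29 when each library was clustered alone, a setting that named only 1044 cells of Day 3 macrophage-like. *Folr2* was at 159 CPM, 158 CPM and 247 CPM, with log2 ratios of -0.01 (-0.09 to 0.07) and 0.64. The early ratio was -0.71 with each library clustered alone. The intervals of Days 3 and 7 overlap, and the value of Day 14 is above both.

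The receptor chain *Il4ra* and the cytokine *Il10* stayed within 2-fold over the 3 libraries. *Il4ra* was at 184 CPM on Day 3, 135 CPM on Day 7 and 112 CPM on Day 14, with log2 ratios of -0.45 (-0.52 to -0.37) and -0.27 (-0.37 to -0.18). It was thus lower at both steps, as were *Arg1* and *Chil3*, while *Retnla* and *Mgl2* were higher at both. How these levels relate was not tested. *Il10* was at 90.5 CPM, 87.2 CPM and 117 CPM, with log2 ratios of -0.05 (-0.16 to 0.05) and 0.43. The plot of levels by day sets the 10 courses side by side.

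**Figure D1:**
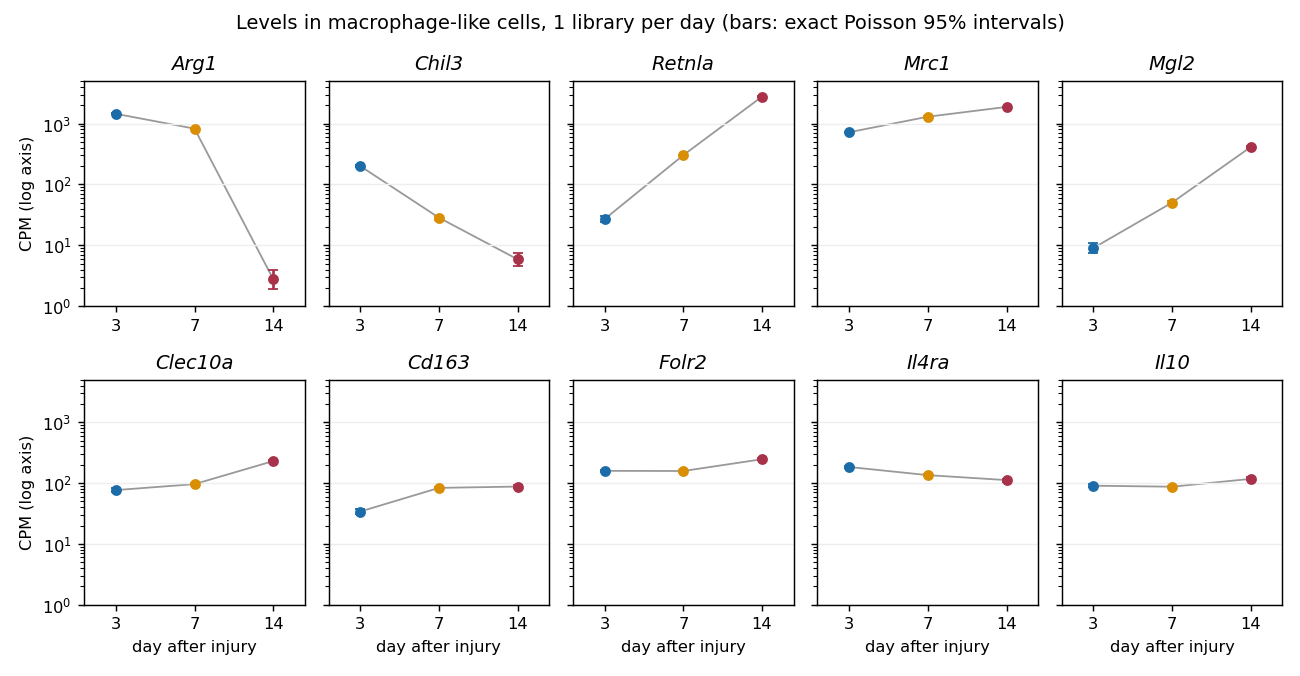
Level of each of the 10 genes in macrophage-like cells (CPM, log axis) against the day after injury, with 1 library per day and exact Poisson 95% intervals as bars. *Arg1* is at 825 CPM on Day 7 and 2.76 CPM on Day 14, *Retnla* and *Mgl2* are higher at both steps and reach 2779 and 415 CPM, and *Il4ra*, *Il10* and *Folr2* stay within 112 to 184, 87.2 to 117 and 158 to 247 CPM.

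Counted by a 2-fold limit, 3 of the 10 genes (*Retnla*, *Mgl2* and *Cd163*) were higher on Day 7 than on Day 3, where 3.23% of the 7563 genes with at least 10 CPM in 1 of the libraries were. *Chil3* was lower, as were 5.42% of all genes, and 6 genes lay between. On Day 14 against Day 7, *Retnla*, *Mgl2* and *Clec10a* were at least 2-fold higher (2.68% of 7495 genes) and *Arg1* and *Chil3* at least 2-fold lower (3.88%), with 5 between. The median log2 ratio of the 10 genes was 0.16 at the early step and 0.48 at the late step, against -0.13 over all genes at each. Both comparisons use the Day 7 library, so they are not independent of each other. The 10 genes were chosen with earlier results of these data known, so these counts are only a description.

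The day ratios can also be read within a cluster. At the early step 4 clusters held at least 50 cells on both days and at the late step 6. At the early step *Arg1* was at least 2-fold lower in the *Ly6c2*/*Ccr2* and *Cbr2*/*Ednrb* clusters, with log2 ratios of -1.03 and -1.02. Without 1 cell of Day 3 these were -0.998 and -0.64, under the limit. *Arg1* was higher in the *Mmp12*/*Trem2* cluster, at 0.19 (0.11 to 0.28), and the *Cxcl3*/*Ppbp* cluster, at 0.72 (0.67 to 0.76), against -0.81 over the class. *Retnla* was at least 2-fold higher in 3 of 4 clusters, which held 2 to 6 of its UMIs each on Day 3, and at -0.55 (-1.11 to -0.02) in the *Cxcl3*/*Ppbp* cluster. There 1 cell held 179 of the 219 UMIs of Day 3, and without it the log2 ratio was 1.90 (1.20 to 2.60). *Mgl2* was at least 2-fold higher in 2 of 4, with log2 ratios from 0.60 to 2.86. The value of 0.60, in the *Cxcl3*/*Ppbp* cluster, was 1.51 without 1 cell of Day 3 and -0.05 without 1 cell of Day 7. At the late step *Arg1* was at least 2-fold lower in the 4 clusters that still had a UMI, with log2 ratios from -7.16 (-9.46 to -5.59, on 3 UMIs of Day 14) to -4.85 (-5.49 to -4.28, on 24 UMIs), and it was not found in the other 2. Of the 24 UMIs, in the *Mmp12*/*Trem2* cluster, 21 were in 1 cell, and without it the log2 ratio was -7.83 (-10.11 to -6.28, on 3 UMIs). *Retnla* was at least 2-fold higher in 5 of 6 clusters and lower in the *Ly6c2*/*Ccr2* cluster, at -5.64 (-10.95 to -3.15, on 1 UMI of Day 14). In the *Cx3cr1*/*H2-Eb1* cluster the *Retnla* log2 ratio of 1.10 was -0.27 (-0.84 to 0.26) without 1 cell that held 59 of 96 UMIs. *Mgl2* was at least 2-fold higher in 4 of 6.

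The ratios of the other genes varied between clusters. *Mrc1* was under the 2-fold limit in every cluster read at both steps. *Clec10a* was under the 2-fold limit in all 6 clusters at the late step, with log2 ratios from -0.71 to 0.87, against 1.26 over the class, and at the early step it was 2-fold lower in the *Mmp12*/*Trem2* cluster (-1.34) against 0.33. *Cd163* with all cells was under the limit in all 4 clusters at the early step, from -0.96 to 0.98, against 1.29. Without 1 cell of Day 7 its early ratio was -1.06 in the *Mmp12*/*Trem2* cluster. Without 1 cell of Day 3 it was 1.33 (-0.16 to 2.94, on 7 UMIs of Day 3) in the *Ly6c2*/*Ccr2* cluster. At the late step *Cd163* was 2-fold higher in 2 clusters and 2-fold lower in 1, from -1.22 to 2.19, against 0.07. The highest, in the *Ly6c2*/*Ccr2* cluster, rested on 8 UMIs and was 0.22 without 1 cell, and the lowest, in the *Mmp12*/*Trem2* cluster, rested on 5 UMIs, 4 of them in 1 cell. *Il4ra* with all cells passed the limit in no cluster at either step, with late ratios from -0.98 to 0.29 against -0.27. Without 1 cell of Day 14 its late ratio was -1.08 in the *Ly6c2*/*Ccr2* cluster and -1.01 in the *Lyz1*/*Ear2* cluster. *Chil3* was at least 2-fold lower in 3 of 4 clusters at the early step, down to -5.44 against -2.82 over the class. Its value in the *Cxcl3*/*Ppbp* cluster, -1.02, was -0.98 without 1 cell of Day 3. At the late step *Chil3* was not found in 4 of 6 clusters of Day 14. In the *Ly6c2*/*Ccr2* cluster, with 66 UMIs of *Chil3* on Day 14, the late log2 ratio was -0.08 (-0.48 to 0.29), and in the *Lyz1*/*Ear2* cluster it was -3.48 (-6.73 to -1.21, on 2 UMIs) with all cells and -1.91 (-5.49 to 1.21) without 1 cell that held 6 of the 9 UMIs of Day 7. *Il10*, at -0.05 and 0.43 over the class, was 2-fold lower in the *Ly6c2*/*Ccr2* cluster at the early step (-2.15). At the late step it was 2-fold lower in the *Slamf7*/*Ccl8* cluster, at -1.01, but at -0.98 without 1 cell of Day 7. It was also 2-fold lower in the *Ly6c2*/*Ccr2* cluster (-1.44, -4.54 to 0.53, on 2 UMIs) and higher in the *Cx3cr1*/*H2-Eb1* cluster (1.88). *Folr2*, at -0.01 and 0.64 over the class, was lower in all 4 clusters at the early step, from -1.44 to -0.21 and 2-fold in 2 of them. At the late step it was 2-fold lower in the *Lyz1*/*Ear2* cluster (-2.37) and the *Ly6c2*/*Ccr2* cluster (-1.56, -4.66 to 0.40, on 2 UMIs), and at most 0.56 in the others.

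Clusters of the same day differed as well. *Arg1* was highest in the *Cxcl3*/*Ppbp* cluster, at 2423 CPM (2382 to 2465) on Day 3, and 3981 CPM (3871 to 4092) in the Day 7 library. The *Mmp12*/*Trem2* cluster followed with 1102, 1261 and 43.7 CPM, and it held 75.0% of the 32 *Arg1* UMIs of Day 14. Without the cell with 21 of them its Day 14 level was 5.54 CPM (1.14 to 16.2). On Day 7 the level in the *Cxcl3*/*Ppbp* cluster was 47.8 times that in the lowest cluster, led by *Slamf7* and *Ccl8*. *Chil3* was highest in the *Ly6c2*/*Ccr2* cluster on each day, at 329, 174 and 164 CPM, and 97.1% of its 68 UMIs of Day 14 were there.

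*Retnla* and *Mgl2* were highest in the *Lyz1*/*Ear2* cluster on Days 7 and 14. On Day 3 this cluster held 14 cells, under the limit of 50, and its level was not read. These 14 cells held 93 of the 322 *Retnla* UMIs and 32 of the 108 *Mgl2* UMIs of that day (28.9% and 29.6%). Among the clusters read on Day 3, *Retnla* was at 39.4 CPM in the *Cxcl3*/*Ppbp* cluster, but at 7.22 CPM (5.16 to 9.84) without 1 cell. This overlaps the 5.94 CPM (2.18 to 12.9) of the *Cbr2*/*Ednrb* cluster. The *Mgl2* intervals of neighbouring clusters overlapped, with 6.93 CPM as the highest level among those read. In the *Lyz1*/*Ear2* cluster *Retnla* stood at 4449 CPM on Day 7 and 9386 CPM on Day 14, against 255 and 727 CPM in the next cluster. The *Lyz1*/*Ear2* cluster held 68.8% and 84.6% of its UMIs. *Mgl2* stood at 605 CPM and 803 CPM there. On Day 14 it was also at 365 CPM in the *Cbr2*/*Ednrb* cluster, 314 CPM in the *Slamf7*/*Ccl8* cluster and 224 CPM in the *Cx3cr1*/*H2-Eb1* cluster, which had been at 32.0, 49.7 and 32.1 CPM on Day 7.

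The remaining receptors and *Il10* were highest in the *Cbr2*/*Ednrb* and *Slamf7*/*Ccl8* clusters. *Mrc1* was at 1870 CPM (1787 to 1957), 2728 CPM and 2796 CPM in the *Cbr2*/*Ednrb* cluster, and *Folr2* at 425, 368 and 542 CPM. *Cd163* was at 169, 280.3 and 193 CPM there. It was 64.3 times higher on Day 7 than in the *Ly6c2*/*Ccr2* cluster. *Clec10a* was at 170, 237 and 433 CPM there, and on Day 7 its interval overlapped that of the *Slamf7*/*Ccl8* cluster, at 211 CPM. *Il10* was highest in the *Slamf7*/*Ccl8* cluster, with 356 CPM (331 to 383) in the Day 7 library. On Day 14 it was at 176 CPM (165 to 188) there, and the *Cbr2*/*Ednrb* cluster overlapped it at 157 CPM. On Day 7 *Il4ra* differed least between clusters of the 10 genes, with the highest 2.42 times the lowest.

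**Figure D2:**
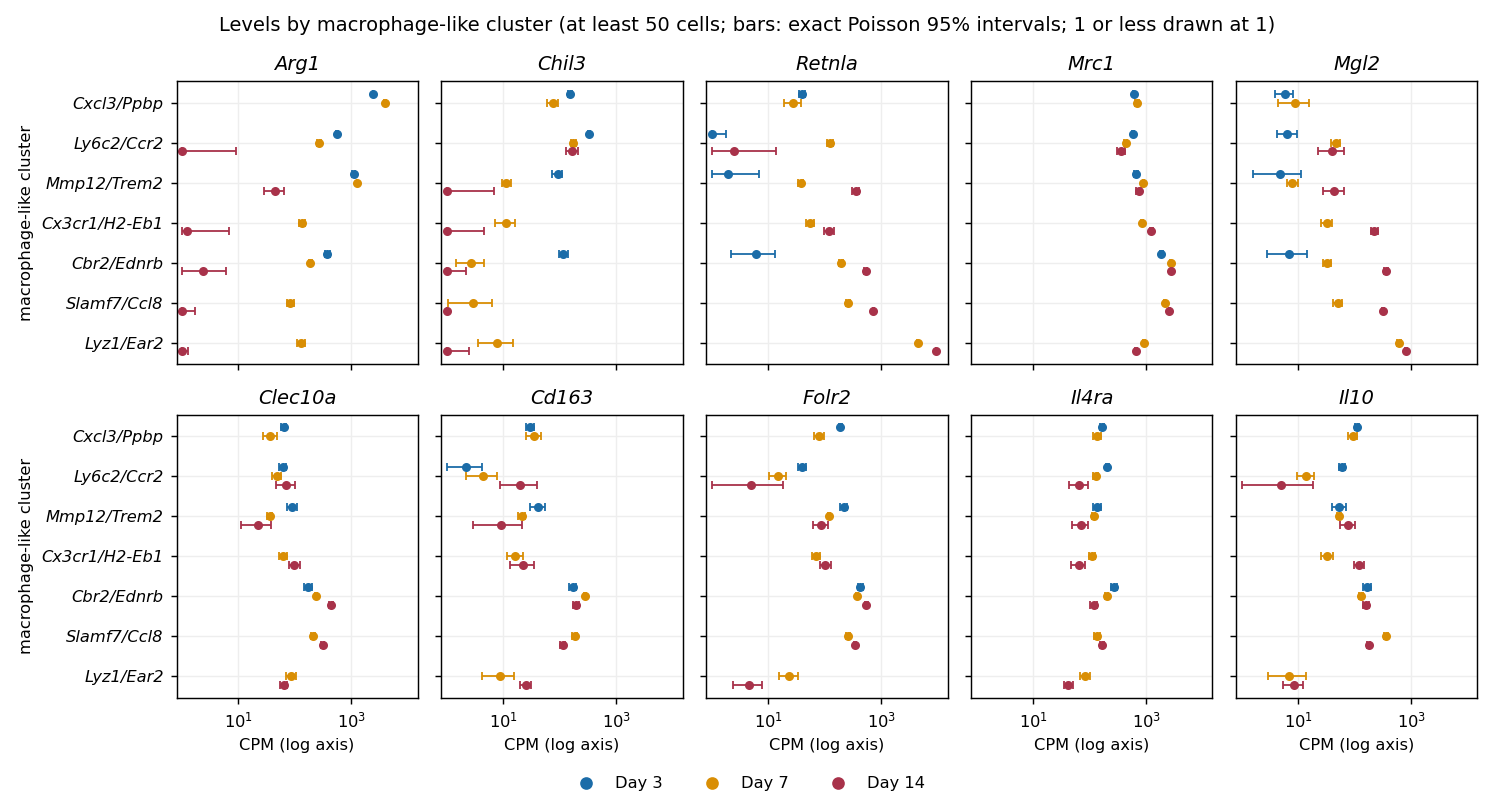
Level of each gene (CPM, log axis) in the 7 macrophage-like clusters, named by leading genes, with a point for each day on which the cluster held at least 50 cells and exact Poisson 95% intervals. *Arg1* is highest in the *Cxcl3*/*Ppbp* cluster (2423 and 3981 CPM), *Chil3* in the *Ly6c2*/*Ccr2* cluster, *Retnla* and *Mgl2* in the *Lyz1*/*Ear2* cluster (9386 and 803 CPM on Day 14), and *Cd163*, *Folr2* and *Mrc1* in the *Cbr2*/*Ednrb* cluster.

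Across the cell classes of the wound, 6 of the 10 genes (*Retnla*, *Chil3*, *Mrc1*, *Cd163*, *Folr2* and *Il10*) had at least 79.7% of their UMIs in macrophage-like cells on each day. Among classes of at least 50 cells their highest level was there, with intervals that did not overlap the class next in level. On Day 3 the other such classes were dendritic cell-like, neutrophil-like and fibroblast-like cells. On Day 14 the *Chil3* interval (4.56 to 7.44) overlapped those of T cell-like and Schwann cell-like cells, which held no *Chil3* UMI (up to 5.32 and 6.34 CPM). *Arg1* had 97.5% and 87.7% of its UMIs there on Days 3 and 7. On Day 14 only 83 *Arg1* UMIs were counted in all cells, and its highest level, 21.6 CPM (12.1 to 35.7) from 15 UMIs, was in T cell-like cells. *Retnla* was also counted in pericyte-like cells of Day 7, at 156 CPM (134 to 181), and endothelial cell-like cells of Day 14, at 119.7 CPM (103 to 139). In each, 1 cell held most of these UMIs (170 of 176 and 151 of 173), and without it the levels were 5.38 and 15.4 CPM. *Retnla* was at 3746 and 4448 CPM on Day 14 in 2 unnamed clusters, which had macrophage as their best class. They were led by haemoglobin genes and by genes of cell division such as *Mki67*. The first was left unnamed by the rule on leading genes. The second was left unnamed because dendritic cell scored close to macrophage (3.32 against 4.39).

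*Mgl2*, *Clec10a* and *Il4ra* were shared with other classes. *Mgl2* was higher in dendritic cell-like than in macrophage-like cells on each day, at 237, 330.2 and 1017 CPM against 9.03, 50.4 and 415 CPM. Dendritic cell-like cells held 73.7%, 43.2% and 29.1% of its UMIs and macrophage-like cells 20.04%, 42.8% and 61.8%. *Clec10a* was higher in dendritic cell-like cells on Days 3 and 7 (389 and 222 CPM) and higher in macrophage-like cells on Day 14 (229.85 against 153 CPM). *Il4ra* was found in most classes. On Day 3 it was highest in dendritic cell-like cells at 285 CPM (260 to 311), and fibroblast-like cells, at 142 CPM (137 to 147), held 49.4% of its UMIs. On Day 7 the intervals of macrophage-like and dendritic cell-like cells overlapped, at 135 and 133 CPM, and on Day 14 those of macrophage-like and T cell-like cells, at 112 and 111 CPM.

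**Figure D3:**
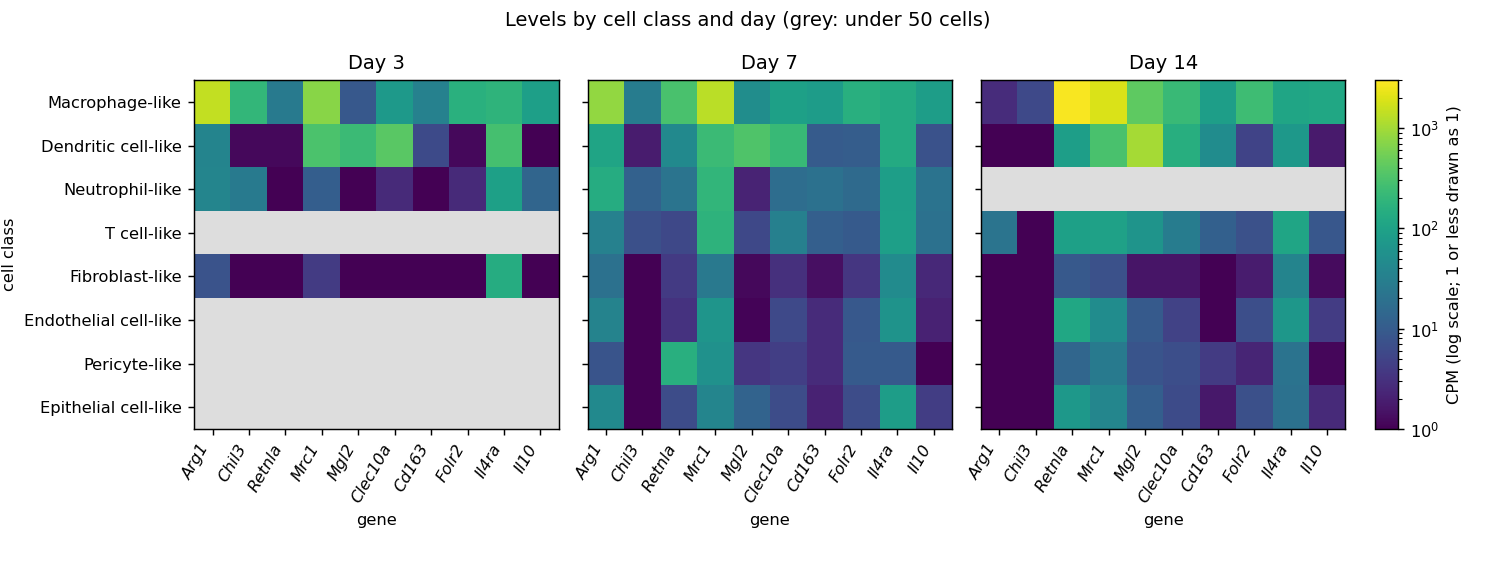
Level of each gene (colour, CPM on a log scale) in 8 cell classes on each day, with classes under 50 cells in grey and values of 1 CPM or less drawn as 1. The macrophage-like row is brightest for most genes, *Mgl2* is brighter in dendritic cell-like cells on each day (1017 against 415 CPM on Day 14), and *Il4ra* is spread over all classes shown.

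Free RNA in droplets adds UMIs to cells that do not express a gene, so shares of cells were set beside fibroblast-like cells, which should lack most of these transcripts. After every cell was thinned to 500 UMIs, *Mrc1* was found in 23.8%, 38.9% and 54.5% of macrophage-like cells and in 0.248%, 1.64% and 0.325% of fibroblast-like cells. Without thinning the shares were 63.0%, 74.7% and 90.7% against 9.90%, 17.2% and 5.32%, at median depths of 4192, 2663 and 3659 UMIs against 44278, 10292 and 9586. *Arg1* was found in 0.103% of thinned macrophage-like cells on Day 14, against 0.0135% of fibroblast-like cells. *Il4ra* was the exception among the 10, with 5.45%, 2.23% and 1.75% in fibroblast-like cells against 8.34%, 6.48% and 5.88%.

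To ask which genes were found in the same macrophages, each macrophage-like cell was thinned to 1000 UMIs, which left 2461, 8142 and 2863 cells. The number of cells with both genes of a pair was set against the number given by the product of their shares. Pairs with at least 5 cells given by the product were read, and a pair was counted as found together at a ratio of at least 1.5 and apart at 1 over 1.5 or less. At this depth *Arg1* was found in 47.5%, 23.2% and 0.0699% of cells, *Mrc1* in 38.3%, 56.0% and 72.4%, *Retnla* in 0.406%, 3.70% and 17.5%, and *Mgl2* in 0.406%, 2.70% and 22.8%.

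On Day 3, 26 of the 45 pairs could be read. Found together were 4 of them, while over all pairs of genes in at least 1% of these cells 4.01% were together and 8.64% apart. *Cd163* and *Folr2* shared 21 cells against 6.70 given by the product, a ratio of 3.14, and *Mrc1* and *Cd163* shared 39 against 20.3, a ratio of 1.92. *Il10* was found together with *Folr2* (1.78) and *Clec10a* (1.57). *Chil3* and *Cd163* were apart, with 3 cells against 7.49. *Arg1* and *Mrc1*, the most often found genes of that day, shared 372 cells against 447, a ratio of 0.83 that passed neither limit.

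On Day 7 all 45 pairs could be read, and 11 were together and 16 apart, against 3.75% and 7.71% of all pairs. *Retnla* and *Mgl2* shared 52 cells against 8.13, the highest ratio of the 10 genes at 6.39. *Clec10a* and *Cd163* shared 125 against 40.2, a ratio of 3.11, and *Mgl2* and *Clec10a* 47 against 18.3, a ratio of 2.57. *Cd163* was found together with 6 of the other 9 genes, namely *Clec10a*, *Folr2*, *Il10*, *Mgl2*, *Mrc1* and *Retnla*.

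Most pairs that were apart on Day 7 held *Chil3* or *Arg1*. *Chil3* was apart from 7 genes: *Mrc1* (0.47), *Clec10a* (0.34), *Retnla* (0.25), *Il10* (0.23), *Folr2* (0.19), *Cd163* (0.16) and *Mgl2*. No cell had both *Chil3* and *Mgl2* where the product gave 5.81, and 0 of the 215 cells with *Chil3* allows a share of up to 1.40% (3 cells of the total) with an *Mgl2* UMI at this depth, which is no limit on the cells that express it. *Arg1* was apart from 6 genes, between 0.45 for *Clec10a* and 0.66 for *Folr2*, but not from *Mrc1*, with which it shared 947 cells against 1060 (0.89). The other pairs apart were *Retnla* and *Il10* (7 cells against 18.4), *Mgl2* and *Il10* (5 against 13.4) and *Mgl2* and *Il4ra* (0.67, but 1.05 with thinning to 2000 UMIs).

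On Day 14, 29 pairs could be read, none with *Arg1*. Together were *Mgl2* and *Cd163* (84 cells against 45.6, 1.84), *Clec10a* and *Cd163* (1.82), *Clec10a* and *Folr2* (200 cells against 113, 1.77) and *Cd163* and *Folr2* (1.68), where 4.37% of all pairs were. *Mrc1* and *Chil3* (2 cells against 11.6) and *Retnla* and *Il4ra* (38 against 58.5, 0.65) were apart, as were 9.12% of all pairs. The ratio of *Retnla* and *Il4ra* was 1.10 without the *Lyz1*/*Ear2* cluster. *Cd163* and *Folr2* were found together on each of the 3 days. No other pair was, among those that could be read on all 3. Over the class, no pair was together on 1 day on which it could be read and apart on another.

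**Figure D4:**
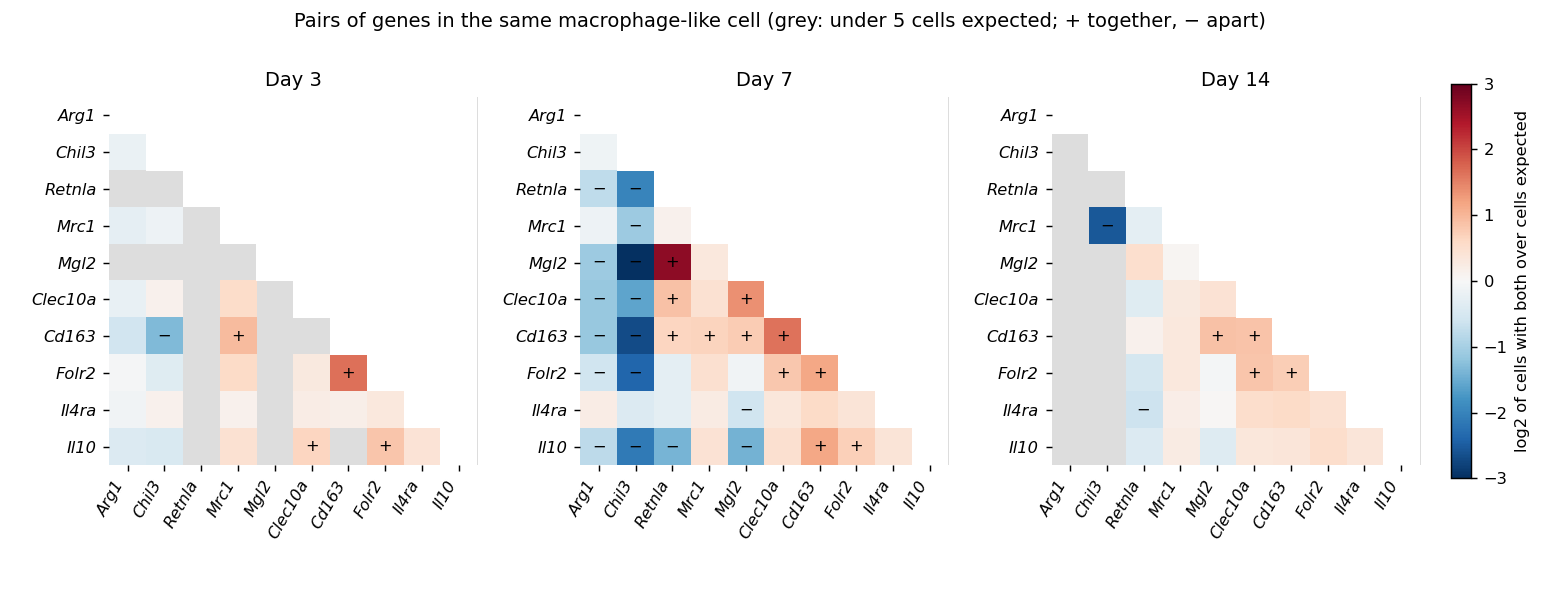
Log2 of the cells with both genes over the cells given by the product of the shares (colour), for each pair of genes in macrophage-like cells thinned to 1000 UMIs on each day; + marks pairs found together, − pairs found apart and grey pairs with under 5 cells given. Day 7 shows 11 pairs together, all among *Retnla*, *Mgl2*, *Clec10a*, *Cd163*, *Folr2*, *Mrc1* and *Il10*. Not all pairs of these genes are together: *Mrc1* is so with *Cd163* only, and *Il10* is apart from *Retnla* and *Mgl2*. The 16 pairs apart lie mainly in the columns of *Arg1* and *Chil3*.

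Pairs were also read within each cluster with at least 100 thinned cells of a day. *Retnla* and *Mgl2*, both highest in the *Lyz1*/*Ear2* cluster, were not found together within it, with ratios of 0.82 on Day 7 (40 cells against 48.5) and 0.78 on Day 14 (114 against 147). On Day 14 their ratio was 1.53 within the *Slamf7*/*Ccl8* cluster and 1.00 within the *Cbr2*/*Ednrb* cluster (9 cells against 9.01). *Cd163* and *Folr2* were at 1.02 within the *Cbr2*/*Ednrb* cluster of Day 7 and at 1.71 within the *Slamf7*/*Ccl8* cluster. On the other days no cluster read had them together, with 1.30 in the *Cbr2*/*Ednrb* cluster of Day 3, and 0.98 there and 1.47 in the *Slamf7*/*Ccl8* cluster on Day 14. *Arg1* and *Mrc1* lay between 0.94 and 1.20 in all 7 clusters of Day 7. *Retnla* and *Il10* were apart in both clusters where they could be read on Day 7. Their ratios were 0.39 in the *Cbr2*/*Ednrb* cluster (2 cells against 5.07) and 0.34 in the *Slamf7*/*Ccl8* cluster (2 against 5.82). On Day 14 they were together in the same clusters, at 1.57 (8 cells against 5.11) and 1.56 (22 against 14.1). The Day 7 numbers given by the product lay near the limit of 5, so the difference between the days rests on few cells. Several pairs that were apart over the class on Day 7 were apart in no cluster read: *Arg1* and *Retnla* lay between 0.67 and 1.02 in 4 clusters, *Arg1* and *Mgl2* between 0.72 and 1.37 in 2, *Mrc1* and *Chil3* between 0.70 and 0.86 in 3, and *Chil3* and *Clec10a* at 0.81 in 1. The other 4 pairs of *Arg1* that were apart were so in 1 or 2 of 4 clusters, and the other 5 pairs of *Chil3* could be read in none. Of the 128 ratios of studied pairs read within clusters of Day 7, 13 were together and 11 apart. The shares over all pairs of genes given above are for the class and not for clusters. Of the 11 pairs that were together over the class on Day 7, 7 were so in at least 1 cluster read. This count needs only 1 cluster of those read: *Mrc1* and *Cd163* were together in 1 of 4, with ratios from 1.04 to 1.96. Besides *Retnla* and *Mgl2*, those together in none were *Clec10a* and *Folr2* (0.67 to 1.41), *Cd163* and *Il10* (1.02 to 1.40) and *Il10* and *Folr2* (1.03 to 1.48).

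Counted per cell, macrophage-like cells thinned to 1000 UMIs held a median of 1 of the 10 genes on Days 3 and 7 and 2 on Day 14. At least 3 genes were found in 13.9% of cells on Day 3, 13.2% on Day 7 and 25.1% on Day 14. None was found in 16.9%, 22.5% and 12.1%, and the most in 1 cell were 5, 7 and 7. *Arg1* as the only gene of the 10 was the most frequent combination on Day 3, in 20.3% of cells, followed among cells with a gene by *Mrc1* alone (10.5%) and *Arg1* with *Mrc1* (8.05%). Among cells with a gene of Days 7 and 14 the most frequent was *Mrc1* alone, in 21.8% and 21.5% of all cells read. On Day 7 it was followed by *Arg1* alone (8.47%) and *Arg1* with *Mrc1* (7.32%), and on Day 14 by *Mrc1* with *Folr2* (6.15%) and *Mrc1* with *Mgl2* (5.13%). At least 3 genes were found in 25.7%, 29.5% and 37.9% of cells of the *Cbr2*/*Ednrb* cluster and in 8.70%, 2.33% and 1.65% of the *Ly6c2*/*Ccr2* cluster.

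**Figure D5:**
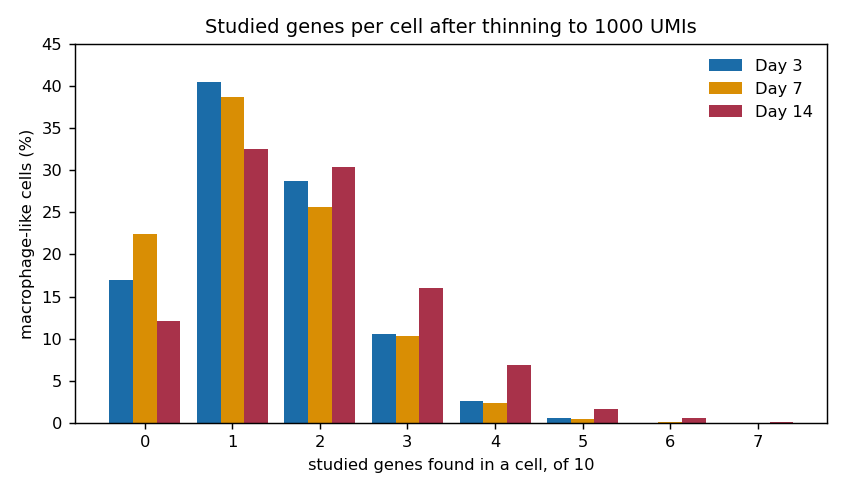
Percent of macrophage-like cells (bars from 0) by how many of the 10 genes were found in the cell after thinning to 1000 UMIs, with a bar for each day. The Day 14 bars are higher from 2 genes upward (25.1% of cells with at least 3, against 13.9% and 13.2%) and lower at 0 and 1.

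Genes of the surrounding pathway were read from lists set by name, also with earlier results of these data known. Of 12 ligands, receptors and signalling genes of interleukins 4, 13 and 10, 10 had at least 10 CPM in macrophage-like cells. Of these, *Il13ra1*, the partner chain of Il4ra for interleukin 13, was 2-fold lower on Day 7 than on Day 3 (log2 ratio -1.22). It was at 49.0 CPM after 114 CPM. No other gene of the list passed the limit at that step, and none did on Day 14 against Day 7. Over all genes, 5.42% were lower and 3.23% higher at the early step, and 3.88% and 2.68% at the late step. *Stat6*, the factor that Il4ra activates, was at 70.9, 58.6 and 51.0 CPM. The ligand genes were close to absent from the libraries, with 0, 16 and 17 UMIs of *Il4* and 2, 6 and 54 UMIs of *Il13* in all cells. On Day 14, 38 of the *Il13* UMIs were in T cell-like cells, at 54.8 CPM (38.8 to 75.3), and 7 of the *Il4* UMIs in 16 mast cell-like cells.

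Of 8 transcription regulators linked to alternative activation, 1 was higher and 1 lower at the early step, and 2 were higher and 2 lower at the late step. Over all genes, 3.23% were higher and 5.42% lower at the early step and 2.68% and 3.88% at the late step. *Pparg*, a nuclear receptor for lipids, was higher on Day 7 (log2 ratio 1.33) and *Cebpb*, known to drive *Arg1*, was lower (-1.82). On Day 14 *Irf4*, a factor of the response to interleukin 4, was higher (1.45), as was the histone demethylase gene *Kdm6b* (1.13), and *Hif1a* (-1.48) and *Maf* (-1.28) were lower. Of 12 other genes used as markers of the state, 6 could be read. *Ear2* was higher at both steps (4.28 and 2.15) and *Igf1* at the early step (2.89), while *Tgm2* was lower at both (-1.04 and -1.52) and *Fn1* at the early step (-1.19). *Cd36*, a scavenger receptor for lipids, was lower at the late step (-1.09).

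Of the 8 resident macrophage genes, 5 could be read at the early step and 7 at the late step. *Lyve1*, a hyaluronan receptor, was higher on Day 7 than on Day 3 (log2 ratio 3.53), as was *Gas6* (1.42), beside 3.23% of all genes. *Cd209d* (3.51) and *Cd209f* (1.73) were higher on Day 14 than on Day 7, beside 2.68% of all genes. *Stab1* was lower at that step (-1.17), beside 3.88% of all genes. *Cd209d* was also among the 10 leading genes of a dendritic cell-like cluster. Of the 6 arginine genes, *Nos2*, which competes with arginase for arginine, was at 12.7 CPM on Day 3 and 0.722 CPM on Day 7 (-4.14), and *Arg2*, the mitochondrial arginase, was lower at both steps (-1.73 and -1.23). *Slc7a2*, an arginine transporter, was at -0.12 (-0.34 to 0.10) at the early step and lower on Day 14 than on Day 7 (-3.36). Of 9 classical activation genes, 7 could be read at each step, with 4 lower and 0 higher on Day 7, among them *Il1b* (-1.80), beside 5.42% and 3.23% of all genes. On Day 14 *Cxcl9* was higher (2.78) and *Ptgs2* lower (-2.16). The list medians at the 2 steps were -0.49 and -0.17 for signalling, -0.38 and 0.37 for regulators, 0.37 and -0.32 for other markers, 0.34 and 0.06 for resident genes, -0.92 and -0.88 for arginine genes and -1.26 and 0.52 for classical genes, against -0.13 over all genes.

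Finally, each gene was set beside all 4297 genes with enough signal over the 17 combinations of macrophage-like cluster and day with at least 50 cells. Units of 1 day share a library, units of 1 cluster share the genes that define it, and the coefficients are given as a description. The most like gene by Pearson's r on log2 CPM was *S100a8* for *Arg1* (0.97), *Psd3* for *Mrc1* (0.94), *Thap12* for *Retnla* (0.90), *Gk* for *Chil3* (0.94) and *Jup* for *Mgl2* (0.92). It was *Bmp2* for *Cd163* (0.92), *Aftph* for *Il4ra* (0.92), *Ctla2b* for *Il10* (0.91) and *Itsn1* for *Folr2* (0.96). Within the 10 genes the highest coefficients were 0.90 for *Il10* and *Folr2* and 0.84 for *Retnla* and *Mgl2*, and the lowest was -0.79 for *Arg1* and *Mgl2*.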

How the data were processed

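Cells of mouse skin wounds were profiled with Chromium 3' single-cell chemistry in 1 library per day. The deposited tables hold raw UMI counts per gene and barcode that the authors made with Cell Ranger 6.0.0 on mm10, per the submitters' processing notes, with no normalization. The libraries of Days 3, 7, and 14 hold 38133650, 120940799 and 112713257 UMIs. Genes were matched by Ensembl ID (32158 of 32285 had a symbol). Cells with at least 200 genes, 500 UMIs and at most 10% mitochondrial UMIs were kept. Doublets were scored against simulated doublets and removed at 0.5 of a rate of 0.8% per 1000 barcodes (92, 1978 and 962 cells), so others remain. Leiden clustering (leidenalg 0.10.2, resolution 1, 2000 variable genes, 30 components, 15 neighbours, libraries not aligned) left out 168 genes: the studied genes, the pathway lists, mitochondrial and ribosomal genes and *Gm42418*, which took 3.60%, 11.7% and 6.42% of UMIs. Clusters were named from marker lists when at least 3 markers were found. A cluster stayed unnamed when its leading genes held more markers of another class or when a second class scored at least 0.75 of the first. In all, 4 clusters stayed unnamed.

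UMIs were summed per class and day as CPM with exact Poisson intervals, ratios carry exact conditional binomial intervals and shares Clopper-Pearson intervals. With 1 library per day no test was made. The code for the ratio intervals and the pair ratios was run on simulated counts with known answers. These counts were Poisson, as the intervals assume, so the run does not cover the spread between cells. The named genes are the 10 studied genes, the 2 highest and 2 lowest of each pathway list in each comparison and the most like genes, of which 1 is not reported here. *Il4* and *Il13* were named after their values were seen. The members and lists were chosen with earlier results of these data known, and the class names, markers and alternatives follow an earlier analysis of them. Python 3.11.15, numpy 2.4.6, scipy 1.17.1 and pandas 2.3.3 were used.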

Additional observations from a re-analysis of the deposited data

How the results depend on the processing

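Over 15 alternatives of scaling, cell filters, doublets and classes, 8 of the 9 calls of 2-fold differences among the 10 genes were kept in all. The exception was *Cd163* on Day 7 against Day 3, at a log2 ratio of 0.29 with each library clustered alone. In the other direction, *Arg1* on Day 7 against Day 3 passed the limit at -1.01 (mitochondrial limit of 5%), -1.03 (full doublet rate removed) and -1.45 (each library alone), and *Mrc1* at 1.09 (without the 50 most abundant genes in the totals) and 1.01 (mean CPM per cell). *Arg1* on Day 14 against Day 7 was -9.13 with the mean CPM per cell, and *Folr2* on Day 7 against Day 3 was -0.71 with each library alone. *Retnla* on Day 7 against Day 3 ranged from 2.36 to 4.50 and *Mgl2* from 1.17 to 2.90. Ratios near 0 changed sign. *Il10* on Day 7 against Day 3 was 0.19 without the 50 most abundant genes, 0.00227 at Leiden resolution 0.5, 0.043 with a class per cell and 0.00115 without the *Lyz1*/*Ear2* cluster. *Folr2* for the same days was 0.23, 0.014 (full doublet rate), 0.082 (class per cell) and 0.045 (without that cluster), and *Cd163* on Day 14 against Day 7 was -0.0082 (without the 50 genes), -0.048 (full doublet rate) and -0.0019 (each library alone). Leaving out the 50 genes moved all ratios by 0.24 and -0.08, and the median of ratios by -0.03 and 0.12. The pair of *Mgl2* and *Il4ra* on Day 7 was at 1.05 with thinning to 2000 UMIs and that of *Retnla* and *Il4ra* on Day 14 at 1.10 without the *Lyz1*/*Ear2* cluster. Pairs found together were 7 on Day 3 with thinning to 2000 UMIs. With limits of 2 and 0.5 they were 1, 5 and 0 on Days 3, 7, and 14, and on Day 14 they were 9 at Leiden resolution 0.5 and 9 without the *Lyz1*/*Ear2* cluster. Of the 5 pairs called on Day 3, limits of 2 and 0.5 lost 3. With each library clustered alone, 2 of the 5 were kept and 2 lost. Of the 27 pairs called on Day 7, thinning to 2000 UMIs lost 7 and limits of 2 and 0.5 lost 10. Of the 6 called on Day 14, these limits lost 5 and leaving out the *Lyz1*/*Ear2* cluster lost 2. Pairs apart on Day 7 were 16, and 11 with thinning to 500 or to 2000 UMIs. The cause of these shifts was not tested. Of the log2 ratios, 191 kept their value within the interval, 98 moved and 11 changed sign. The 2 class settings on unnamed clusters and on the *Lyz1*/*Ear2* cluster, the readings within clusters and those without the cell with the most UMIs were added after seeing the data. With 1 library per day no replicate could be left out. No paired analysis was possible because each day has 1 library.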
